A study of Mus musculus with 3 samples.

Results

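The genes described here were 8 of the 32285 genes in the count matrices, taken by their symbols: the heavy chain genes H2-K1, H2-D1, H2-Q4, H2-Q7, H2-T22 and H2-T23, the light chain gene B2m, and Nlrc5. The tumors sequenced cell by cell were of B16-F10, a pigmented mouse melanoma line grown here in the skin of C57BL/6J mice that were 6 to 8 weeks old. There were 3 libraries, 1 labelled shCtrl (a control short hairpin RNA) and 2 labelled shMib2, which carried different hairpins against Mib2 (an E3 ubiquitin ligase), and each was made from the pooled tumors of 3 mice. Libraries are named by their labels because RNA of the targeted gene was not lower: in melanoma cells Mib2 was at 2.50 CPM (UMIs, that is counted molecules, of a gene per 1000000 UMIs) in shCtrl, with 3.11 for shMib2 replicate 1 and 2.67 for shMib2 replicate 2, a log2 difference of 0.16 (SE 0.12) with an adjusted p of 0.559 (edgeR's quasi-likelihood test, Benjamini-Hochberg). Pooling, hairpin and library cannot be told apart with these samples, and the p-values measure only the spread between these libraries.

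MHC class I molecules carry peptides from inside the cell to its surface, where CD8+ T cells inspect them. Each is a heavy chain paired with beta-2 microglobulin, the product of B2m. H2-K1 and H2-D1 encode classical heavy chains, which vary widely between strains and present most peptides to CD8+ T cells. H2-Q4, H2-Q7, H2-T22 and H2-T23 are nonclassical genes of the Q and T regions. H2-T23 encodes Qa-1, a ligand of the CD94-NKG2A receptor of NK cells, H2-Q7 encodes a Qa-2 chain, and H2-T22 encodes a ligand of some gamma delta T cells. Nlrc5 encodes the transactivator of class I genes, which acts through a conserved promoter module and is induced by interferon gamma. B16-F10 is known for low surface class I that interferon gamma can raise.

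In the annotation of mm10 (GRCm38), the build of the files, all 6 heavy chain genes lie on chromosome 17. H2-K1 spans chr17:33996017-34000347 on the minus strand, and H2-D1 spans chr17:35262730-35267499 on the plus strand. H2-Q4 spans chr17:35379617-35385290 and H2-Q7 spans chr17:35439155-35443773, both on the plus strand. H2-T23, at chr17:36029773-36032855, and H2-T22, at chr17:36037128-36042747, lie side by side on the minus strand. B2m is on chromosome 2, at chr2:122147686-122153083, and Nlrc5 on chromosome 8, at chr8:94434356-94527272, both on the plus strand.

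The promoters are shown because all 8 members were higher in T, NK, myeloid and stromal cells than in melanoma cells. RefSeq promoters (GRCm38.p6) were matched for 7 of the 8 members, and the 200 bases before the first listed start were read. The lines give the strand of the gene, 5′ to 3′, with these motifs in capitals: AANNGAAA (the core of an interferon-stimulated response element, ISRE, read on either strand), and the pair TGAC and ATTGG set 20 to 30 bases apart (the X2 and Y boxes of the module through which NLRC5 acts).
H2-K1, chr17:34000348-34000547, minus strand: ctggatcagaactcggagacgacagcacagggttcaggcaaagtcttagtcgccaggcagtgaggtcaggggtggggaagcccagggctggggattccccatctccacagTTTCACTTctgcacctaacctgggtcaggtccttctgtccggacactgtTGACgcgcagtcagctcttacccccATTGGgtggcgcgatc
H2-D1, chr17:35262993-35263022, plus strand: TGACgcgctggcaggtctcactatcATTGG
H2-Q4, chr17:35379417-35379616, plus strand: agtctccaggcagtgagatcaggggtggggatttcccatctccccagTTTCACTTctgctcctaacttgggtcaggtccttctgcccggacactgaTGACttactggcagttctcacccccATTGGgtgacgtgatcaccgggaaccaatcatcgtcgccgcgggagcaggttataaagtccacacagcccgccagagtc
H2-Q7, chr17:35438955-35439154, plus strand: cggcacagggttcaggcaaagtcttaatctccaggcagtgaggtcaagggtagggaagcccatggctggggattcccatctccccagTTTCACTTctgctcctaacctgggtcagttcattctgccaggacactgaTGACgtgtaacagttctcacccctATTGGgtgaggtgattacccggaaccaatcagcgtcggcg
B2m, chr2:122147487-122147685, plus strand: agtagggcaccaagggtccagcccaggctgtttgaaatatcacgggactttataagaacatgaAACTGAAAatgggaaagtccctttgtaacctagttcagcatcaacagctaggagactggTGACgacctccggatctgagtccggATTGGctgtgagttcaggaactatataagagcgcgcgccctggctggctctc
H2-T22, chr17:36042748-36042942, minus strand: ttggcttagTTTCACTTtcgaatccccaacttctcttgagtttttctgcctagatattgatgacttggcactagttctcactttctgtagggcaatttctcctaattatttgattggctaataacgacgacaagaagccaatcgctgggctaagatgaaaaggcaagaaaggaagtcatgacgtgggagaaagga
The whole H2-D1 window, its boxes included, lies in a longer annotated first exon, so only the paired boxes are printed, and the H2-T23 window is not printed for the same reason.

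The promoters differed in which elements they held. The TGAC and ATTGG pair was in the windows of 5 of the 7 members, H2-K1, H2-D1, H2-Q4, H2-Q7 and B2m, and in 584 of 32851 promoters (1.78%) on either strand. The first bases of the boxes were 25 bases apart in H2-K1, H2-D1, H2-Q4 and B2m and 24 in H2-Q7. All 7 members held AANNGAAA, as did 17.0% of all promoters. A motif match is a description of the letters in this window, and the Y box ATTGG is the reverse complement of CCAAT, which was in 29.3% of all promoters.

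Cells were sorted into classes by marker genes, not by the members. The gate kept 8256, 6711 and 4378 melanoma cells in shCtrl, shMib2 replicate 1 and shMib2 replicate 2, 76, 528 and 771 T cells, 28, 236 and 385 NK cells, 57, 73 and 124 B cells, 6, 99 and 207 myeloid cells, and 19, 297 and 290 stromal cells. In all 6 classes the 4 further markers held back from the gate were detected in each library. Detection alone does not check the gate, as many were detected in other classes too. Each set summed highest in its own class in every library. The stromal set was at 11911, 14244 and 14014 CPM in stromal and 746, 675 and 664 in melanoma cells. The B cell set was at 18995, 18601 and 19072 in B and 9647, 14479 and 9429 in myeloid cells. Totals were 190904274 to 243926188 UMIs a library, and 20 to 30 cell barcodes were shared by any pair. Median UMIs a cell were 25119 to 42169 in melanoma cells and 1513 to 2669 in T cells, so levels are CPM over the summed cells of a class within a library. A UMI marks a molecule at its 5′ end, so levels were not divided by gene length. Class I genes are close relatives, and reads shared between them could be lost or moved in counting.

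Melanoma cells had the lowest level of all 8 members of any class in each library, apart from Nlrc5 in classes where shCtrl had 0 UMIs. H2-K1 was at 40.8 CPM in melanoma cells of shCtrl (95% Poisson interval 40 to 41.6), 69.5 for shMib2 replicate 1 (68.3 to 70.7) and 77.7 for shMib2 replicate 2 (76.5 to 79.0). In T cells H2-K1 was at 2444, 2771 and 2851. The ranges of the classes were far apart in every library. Poisson and binomial intervals cover counting error only.

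H2-D1 was at 73.8, 132 and 138 CPM in melanoma cells and 1703, 2142 and 2195 in T cells, in the same order of libraries. B2m was at 215, 350 and 343 in melanoma cells and 1246, 2173 and 1988 in T cells. For both genes shCtrl had the lowest melanoma level and the lowest T cell level. The gap between the classes was narrower for B2m than for either classical heavy chain.

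Of the nonclassical genes, H2-T22 was at 15.7, 23.2 and 23.3 CPM in melanoma cells against 132, 196 and 197 in T cells. H2-T23, the Qa-1 gene, was at 3.14, 6.85 and 6.79 in melanoma cells against 187, 306 and 254 in T cells. Both were lowest in shCtrl in both classes. H2-Q4 was at 4.82, 3.40 and 6.47 in melanoma cells and 132, 81.7 and 176 in T cells, and H2-Q7 at 0.130, 1.40 and 2.54 in melanoma cells against 942, 1071 and 1083 in T cells. Nlrc5 was at 0.649, 2.1 and 2.39 in melanoma cells and 27.7, 52.3 and 68.9 in T cells.

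**Figure D1:**
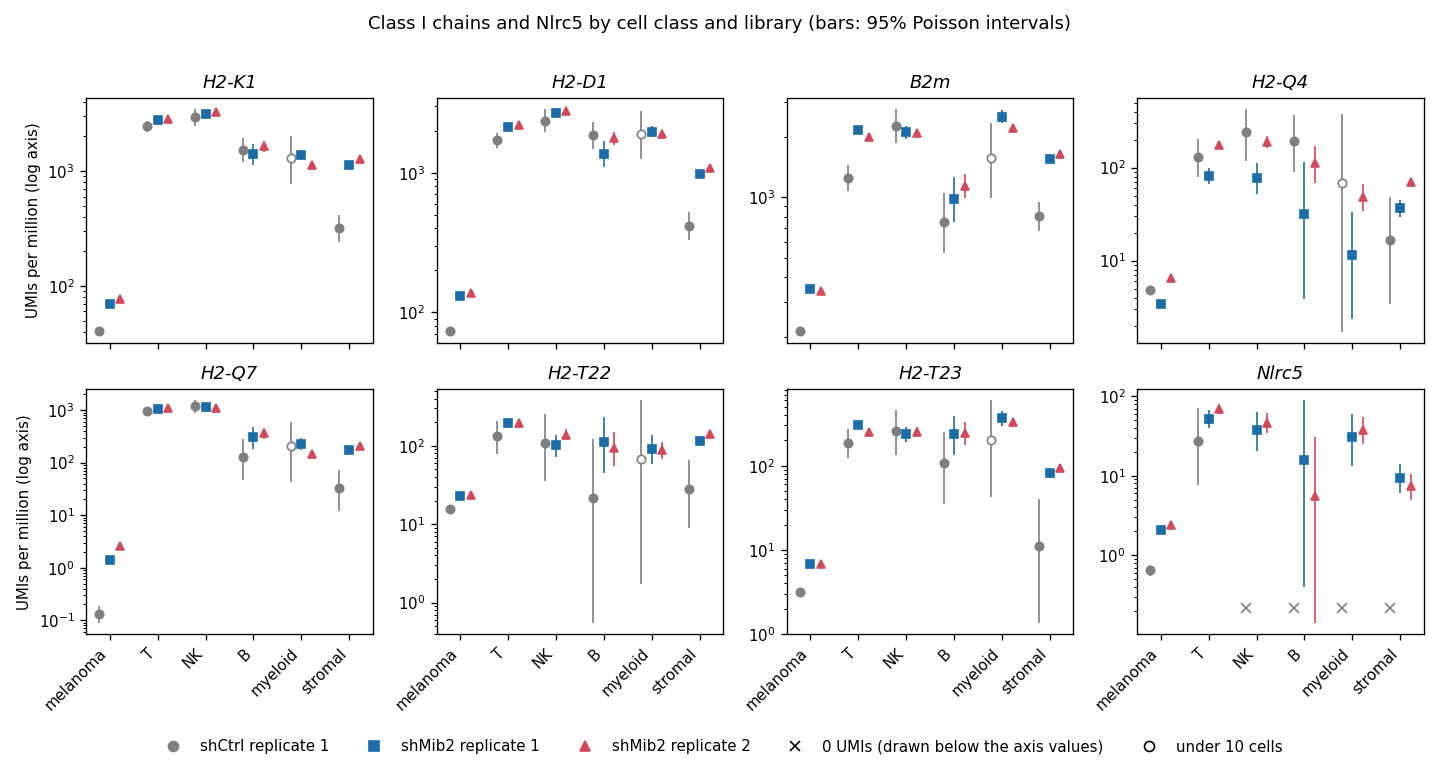
Level of each member (CPM on a log axis) in 6 marker-gated classes, with 1 point a library and bars for 95% Poisson intervals; crosses at the foot of a panel mark 0 UMIs and an open circle marks the myeloid class of shCtrl, with 6 cells. In each library the melanoma point lies lowest among those above 0, and the shCtrl stromal point lies below both shMib2 stromal points in all panels where it is above 0.

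Every class had more class I RNA than melanoma cells by test. With the library as a block and 10536 genes fitted together, all 8 members were higher in T cells than in melanoma cells (33.9% of all genes were called higher), in NK cells (26.8%), in myeloid cells (25.9%) and in stromal cells (38.1%), by edgeR's quasi-likelihood test at an adjusted p of 0.05. In B cells 7 of 8 were called higher (16.1% of all genes), the exception being Nlrc5 at 1.85 (SE 1.24, adjusted p = 0.256). The members' median log2 differences were 4.93 in T, 4.79 in NK, 4.12 in B, 4.25 in myeloid and 3.30 in stromal cells, beside medians over all genes of -0.08, -0.21, -0.59, -0.19 and 0.07. Scaling by library totals alone moved the medians over all genes to -0.27, -0.37, -0.65, -0.50 and -0.11. The myeloid class of shCtrl, with 6 cells, was left out of this fit. Without shMib2 replicate 2 the call was lost for H2-T22 in B cells (1.75 in place of 2.0) and for H2-Q4 in myeloid cells (2.01 in place of 3.07).

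The size of the gap differed from gene to gene. Between T and melanoma cells the log2 difference was 10.06 for H2-Q7 (SE 0.49), 5.66 for H2-K1 (SE 0.25), 5.63 for H2-T23 (SE 0.21), 4.98 for Nlrc5 (SE 0.16) and 4.89 for H2-Q4 (SE 0.15). It was 4.36 for H2-D1 (SE 0.19), 3.23 for H2-T22 (SE 0.13) and 2.76 for B2m (SE 0.15), with adjusted p by edgeR from 8.81e-22 for H2-Q4 to 8.91e-16 for B2m. Stromal cells, mostly fibroblasts by their markers, stood between: 4.02 for H2-K1 (SE 0.23), 3.03 for H2-D1 (SE 0.18), 2.28 for B2m (SE 0.15) and 2.04 for Nlrc5 (SE 0.26) above melanoma cells.

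Among the other classes the order depended on the gene. H2-K1 was highest in NK cells, with a mean of 3120 ± 177 CPM (SD, n = 3), then in T (2689 ± 215), B (1525 ± 121), myeloid (1259 ± 178, n = 2), stromal (906 ± 516) and melanoma cells (62.7 ± 19.4). The myeloid means here and below leave out shCtrl, which the means of the other classes include. Stromal H2-K1 ran from 318 in shCtrl to 1280, and myeloid H2-K1 from 1132 to 1385 without shCtrl. The order of these classes therefore mixes class with the libraries counted. NK and T cells did not differ past the threshold (adjusted p = 0.924 by edgeR's quasi-likelihood test), nor did B and myeloid (0.687) or myeloid and stromal cells (0.149), while T and B cells did (0.00192). Between NK and T cells 9.17% of all genes were called, between B and T cells 13.9%, between myeloid and B cells 22.1%, between stromal and myeloid cells 44.8% and between stromal and B cells 38.1%. For the other pairs it was 11.7% (B and NK), 34.4% (myeloid and T), 29.2% (myeloid and NK), 64.1% (stromal and T) and 54.2% (stromal and NK). For H2-D1 the order was NK (2603 ± 209), T (2014 ± 270), myeloid (1937 ± 43.6, n = 2), B (1663 ± 260), stromal (830.2 ± 360.3) and melanoma cells (115 ± 35.4). In that order no neighbours from NK to B cells differed past the threshold, and stromal cells were lower than B cells (adjusted p = 0.000702 by edgeR).

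B2m, the light chain, had another order: myeloid (2373 ± 214, n = 2), NK (2157 ± 106), T (1802 ± 490), stromal (1339 ± 462), B (961 ± 194) and melanoma cells (303 ± 75.7). Stromal cells were below T cells (log2 difference -0.48, adjusted p = 0.00495) and above B cells (0.58, adjusted p = 0.0053) in the edgeR fit, and no difference among myeloid, NK and T cells passed the threshold. H2-T23 was likewise highest in myeloid cells (347 ± 29.7, n = 2), followed by NK (249.8 ± 11.95), T (249.0 ± 59.5), B (197 ± 76.9), stromal (62.1 ± 44.6) and melanoma cells (5.59 ± 2.12). Myeloid and NK cells did not differ past the threshold for H2-T23 (0.56, adjusted p = 0.0667), and stromal cells were lower than B cells (-1.39, adjusted p = 0.000292 by edgeR).

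H2-Q7 separated T and NK cells from the rest. It was at 1128 ± 43.5 in NK and 1032 ± 78.2 in T cells, against 266 ± 122 in B, 188 ± 59.4 in myeloid (n = 2), 136 ± 90.4 in stromal and 1.36 ± 1.20 in melanoma cells (CPM, SD, n = 3 where not given). The log2 difference of B minus T cells was -2.16 (SE 0.48, adjusted p = 0.00206 by edgeR), and B, myeloid and stromal cells did not differ past the threshold from one another. Stromal H2-Q7 ran from 33.5 in shCtrl to 203, and myeloid H2-Q7 from 146 to 230 without shCtrl. H2-T22 was highest in T cells (175 ± 37.4), above NK cells (116 ± 20.1) by edgeR's test (adjusted p = 0.011). By their means stromal (93.9 ± 58.7), myeloid (89.7 ± 3.29, n = 2) and B cells (75.7 ± 47.6) were close behind and not separated. Stromal levels ran from 27.9 in shCtrl to 140, beside 101 to 139 in NK cells. The fitted log2 difference of stromal minus NK cells was 0.0039 (SE 0.17). The myeloid mean leaves out shCtrl, and in the shMib2 libraries H2-T22 was at 111 and 94.3 in B cells against 92.1 and 87.4 in myeloid cells.

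H2-Q4 was at 168 ± 82.8 in NK, 130 ± 47.0 in T, 112 ± 81.4 in B, 40.8 ± 26.5 in stromal, 29.9 ± 26.0 in myeloid (n = 2) and 4.90 ± 1.54 in melanoma cells. NK, T and B cells did not differ past the threshold, nor did B and stromal (adjusted p = 0.078) or stromal and myeloid cells (0.178) in the edgeR fit. Its spread came with 1 library: shMib2 replicate 1 was the lowest of the 3 in melanoma, T, NK, B and myeloid cells, at 31.8 against 194 and 111 in B cells and 77.2 against 239 and 189 in NK cells. H2-Q4 has close relatives in the Q region, and the part of read assignment in this was not tested.

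Nlrc5 was highest in T cells, at 49.6 ± 20.8 CPM. In the shMib2 libraries it came next in NK cells, at 37.3 and 46.4, and then in myeloid cells, at 30.7 and 37.8. It was lower in B (7.15 ± 8.07), stromal (5.61 ± 4.98) and melanoma cells (1.71 ± 0.933). B cells had 0, 1 and 1 Nlrc5 UMIs in the 3 libraries, so their place is set by very few molecules. In shCtrl, Nlrc5 had 0 UMIs in NK, B, myeloid and stromal cells, which allows up to 65.1, 64.8, 204 and 16.7 CPM. Myeloid cells were below T cells (-0.70, adjusted p = 0.0374), NK and T cells did not differ past the threshold (adjusted p = 0.107 by edgeR's quasi-likelihood test), while stromal cells were below NK cells (log2 difference -2.36, SE 0.29).

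Over 17 library-by-class profiles, H2-K1 followed H2-Q7 (Pearson r = 0.991 of log2 levels) and H2-D1 (0.987) most closely among the members, and Nlrc5 least (0.599). Of the 10536 genes fitted, those most like H2-K1 outside the members were Wipf1 (0.985), Tap2 (0.962), Ptk2b (0.961), Rrad (0.961) and Icam1 (0.960). The most like Nlrc5 were Ms4a6b (0.924), Adap1 (0.905), Ifi206 (0.903), Psma2 (0.898) and Psmb10 (0.892). Profiles of 1 library share its depth and those of 1 class share its identity, so these values are descriptions.

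The melanoma level can be read against RNA that floats free in the suspension. Ptprc (CD45) and Cd52, made by blood cells and not by melanoma cells, were in melanoma cells at 0.0122% and 0.0112% of their level in the T, NK, B and myeloid cells of shCtrl pooled, 0.146% and 0.142% for shMib2 replicate 1, and 0.214% and 0.206% for shMib2 replicate 2. Coro1a, an actin-binding protein gene of blood cells, was higher, at 0.207%, 0.268% and 0.368%, and whether melanoma cells make some of it was not tested. B2m was at 15.8%, 16.1% and 17.0% of the blood cell level, H2-T22 at 15.2%, 14.4% and 14.3%, and H2-D1 at 3.96%, 5.98% and 6.14%. H2-K1 was at 1.78%, 2.66% and 2.96%, H2-T23 at 1.68%, 2.29% and 2.56%, H2-Q4 at 3.03%, 4.88% and 4.15%, and Nlrc5 at 4.08%, 4.64% and 4.21%. These 7 members were above all 3 blood cell genes in every library.

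H2-Q7 was the exception among the members. Its melanoma level was 0.0164%, 0.149% and 0.279% of the blood cell level, next to that of Ptprc and below that of Coro1a. With the larger of the Ptprc and Cd52 ratios applied to its blood cell level, 0.0969, 1.37 and 1.94 CPM of H2-Q7 would be carried, beside measured levels of 0.130, 1.40 and 2.54. The carried level lay within the Poisson interval of the measured one in shCtrl (0.0882 to 0.184) and shMib2 replicate 1 (1.23 to 1.59) and below it in shMib2 replicate 2 (2.31 to 2.78), so its differences from melanoma cells are read with this background beside them. For H2-K1 the carried level came to 0.281, 3.80 and 5.61 beside 40.8, 69.5 and 77.7, and for Nlrc5 to 0.00195, 0.0659 and 0.121 beside 0.649, 2.1 and 2.39.

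**Figure D2:**
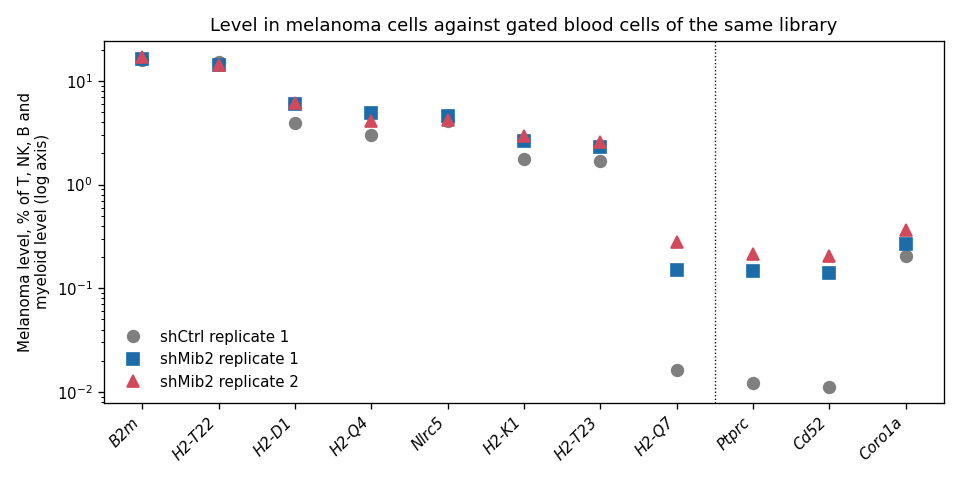
Level in melanoma cells as a percent of the level in T, NK, B and myeloid cells of the same library (log axis), for the members and, right of the dotted line, the blood cell genes Ptprc, Cd52 and Coro1a, with 1 point a library. B2m lies at 15.8% to 17.0%, while H2-Q7 lies beside Ptprc and Cd52.

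Classical genes made most of the heavy chain UMIs in every class. They were 82.8% of the UMIs of the 6 heavy chain genes in melanoma cells of shCtrl, 85.2% for shMib2 replicate 1 and 84.7% for shMib2 replicate 2, and 74.9%, 74.8% and 74.7% in T cells. In T cells the 3 libraries lay within each other's Wilson intervals, the widest being 71.8% to 77.8% in shCtrl. NK cells had 74.8%, 79.1% and 78.4%, myeloid cells 85.5%, 82.7% and 83.3%, and B cells 88.2%, 80.2% and 80.7%. Stromal cells had 89.2% (83.2% to 93.2%), 83.9% and 82.4%.

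What filled the nonclassical share differed. In T cells H2-Q7 was 17.0%, 16.3% and 16.0% of heavy chain UMIs and H2-T22 2.38%, 2.99% and 2.91%, whereas in melanoma cells H2-Q7 was 0.0938%, 0.594% and 0.994% and H2-T22 11.4%, 9.82% and 9.14%. The values of T and melanoma cells lay apart for both genes. Between these classes 33.9% of all genes were called higher in T cells and 35.9% lower. The melanoma share of H2-Q7 rests on levels near those of carried RNA. The classical pair also had another balance: H2-K1 was 44.1%, 42.2% and 42.2% in T cells against 29.5%, 29.5% and 30.5% in melanoma cells, and H2-D1 was 30.8%, 32.6% and 32.5% against 53.3%, 55.8% and 54.2%. B2m gave 1.56, 1.48 and 1.34 UMIs per heavy chain UMI in melanoma cells, 0.980, 0.619 and 0.575 in stromal cells, 0.418, 0.623 and 0.609 in myeloid cells and 0.225, 0.331 and 0.294 in T cells. NK cells (0.271 to 0.322) and B cells (0.197 to 0.286) were near T cells, so melanoma cells had the highest ratio of light chain to heavy chain UMIs of the 6 classes in each library.

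**Figure D3:**
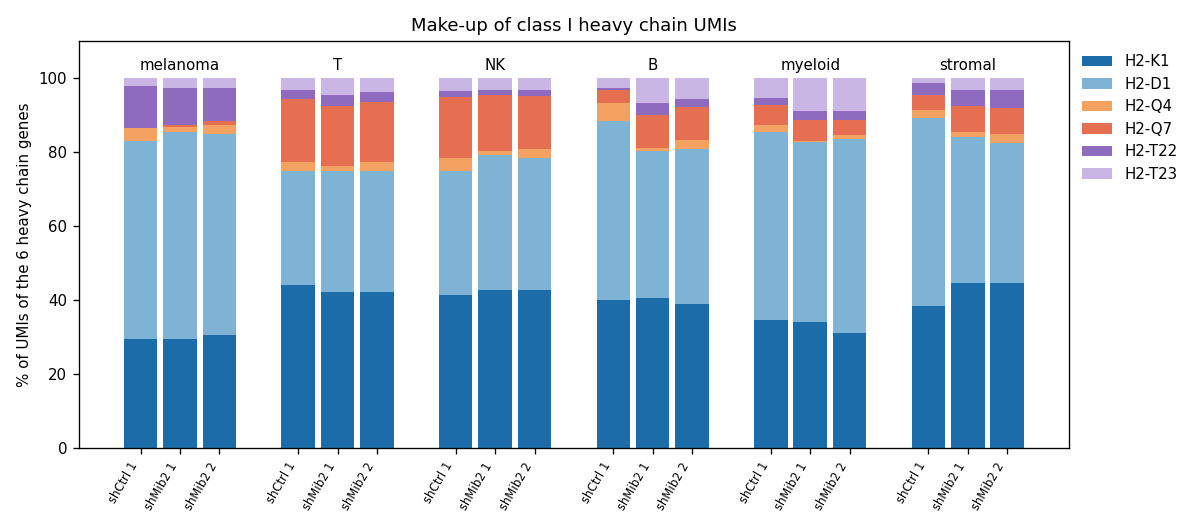
Share of each of the 6 heavy chain genes (% of their summed UMIs) in each class, with 1 stacked bar a library. Blue shades are the classical genes H2-K1 and H2-D1; the H2-Q7 segment is 16.0% to 17.0% in T cells and under 1% in melanoma cells, where H2-T22 takes 9.14% to 11.4%.

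The comparison of labels asks whether tumors carrying hairpins against Mib2 differed in class I RNA. In melanoma cells 7 of the 8 members, H2-Q7 with its background among them, were higher in both shMib2 libraries than in shCtrl, as were 49.8% of the 16040 genes tested. Nlrc5 was 3.23 times its shCtrl level for shMib2 replicate 1 (exact 95% interval 2.68 to 3.93) and 3.68 times for shMib2 replicate 2 (3.06 to 4.45). H2-T23 was 2.18 and 2.16 times, H2-D1 1.78 and 1.87 times, H2-K1 1.70 and 1.90 times, B2m 1.63 and 1.59 times and H2-T22 1.47 and 1.48 times its shCtrl level. H2-Q4 was 0.705 and 1.34 times, on either side of shCtrl.

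None of these passed the test, which rested on 1 control library. The label differences in melanoma cells were 1.74 for Nlrc5 (SE 0.17), 1.07 for H2-T23 (SE 0.06), 0.82 for H2-D1 (SE 0.07), 0.81 for H2-K1 (SE 0.11), 0.64 for B2m (SE 0.04) and 0.52 for H2-T22 (SE 0.05) on the log2 scale, with adjusted p from 0.255 for B2m to 0.301 for H2-K1 by edgeR's quasi-likelihood test. H2-Q7 differed by 3.88 (SE 0.63) beside its carried level, and H2-Q4 by -0.01 (SE 0.47), or 0.03 under library totals alone. The test called 0 of 16040 genes (0.0%), with 2425 genes (15.1%) and 7 of the 8 members at an unadjusted p under 0.05. DESeq2 called 1124 of 15729 genes (7.15%), among them 7 of the 8 members, all but H2-Q4. The members' median difference was 0.82, beside 0.0078 over all genes. T cells were 0.795%, 5.60% and 9.19% of barcodes in shCtrl, shMib2 replicate 1 and shMib2 replicate 2, and Ptprc in melanoma cells was at 0.0838, 1.20 and 1.77 CPM.

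In T cells only B2m came near the threshold. B2m was at 1246 CPM in shCtrl and at 2173 and 1988 in the shMib2 libraries, a log2 difference of 0.65 (SE 0.12) with an adjusted p of 0.0735 by edgeR, and from 2.36e-06 to 0.128 over 11 settings, 8 of which called it. None of the 8 members was called in T cells (0.237% of 8440 genes were, 8.14% had an unadjusted p under 0.05, and DESeq2 called 4.16% of 913). H2-K1 differed by 0.12 (SE 0.11), H2-Q7 by 0.11 (SE 0.13) and H2-D1 by 0.26 (SE 0.11). In NK cells the member differences were -0.06 for B2m (SE 0.17), 0.20 for H2-K1 (SE 0.16) and 0.27 for H2-D1 (SE 0.17), with 0 of 8 members and 2 of 5401 genes (0.037%) called. In B cells 0 of the 6 members tested and 3 of 1039 genes (0.289%) were called, and H2-D1 differed by -0.26 (SE 0.27). At an unadjusted p under 0.05 there were 2 members in T, 1 in NK (6.83% of genes) and 1 in B cells (4.91%), and DESeq2 called 0 members in these 3 classes.

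Stromal cells of shCtrl had less class I RNA than those of either shMib2 library. Every member with a UMI in shCtrl was higher in both. For Nlrc5 the 0 UMIs of shCtrl cannot place it, as the shMib2 levels were 0.568 and 0.438 times the bound this allows. Of 11056 genes 50.9% were higher in both, with genes at 0 UMIs in shCtrl counted among them. H2-K1 was at 318 CPM in the 19 stromal cells of shCtrl (95% Poisson interval 241 to 412), and at 1120 and 1280 in the shMib2 libraries. In a test added after the data were seen, since shCtrl had under 20 cells, 6 of the 8 members were called higher in stromal cells of the shMib2 libraries (404 genes were called, 3.65%). The log2 differences were 1.94 for H2-K1 (SE 0.16, adjusted p = 4.15e-06), 1.33 for H2-D1 (SE 0.15), 1.01 for B2m (SE 0.12), 2.52 for H2-Q7 (SE 0.38), 2.22 for H2-T22 (SE 0.45) and 3.0 for H2-T23 (SE 0.59) by edgeR's quasi-likelihood test. H2-Q4 had 3 UMIs in shCtrl and was not called (1.73, SE 0.96), and Nlrc5 had 0. With a looser gate, which gave shCtrl 20 stromal cells, the label difference was larger in stromal than in melanoma cells for H2-K1 (1.31, SE 0.20), H2-D1 (0.67, SE 0.19), B2m (0.50, SE 0.15) and H2-T22 (1.87, SE 0.56), and not past the threshold for the other 4 members (2.4% of genes were called).

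The stromal gap was also there among cells with fibroblast markers (Dcn, Lum or Pdgfra) and no vascular marker. These were 14, 267 and 258 cells, in which H2-K1 was at 308, 1143 and 1274 CPM, H2-D1 at 355, 997 and 1068, and B2m at 810, 1589 and 1655. In the 2, 6 and 9 cells with vascular markers alone, H2-D1 was at 1647, 1213 and 1268, highest in shCtrl, B2m at 1273, 1480 and 1016 and H2-K1 at 749, 922 and 932. Ptprc in stromal cells was at 0, 9.51 and 13.7 CPM. The 11 stromal markers of the gate summed to 18530, 35599 and 35009 CPM and the 4 held back from it to 11911, 14244 and 14014, both lowest in shCtrl, and the part of this in the class I gap was not tested.

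**Figure D4:**
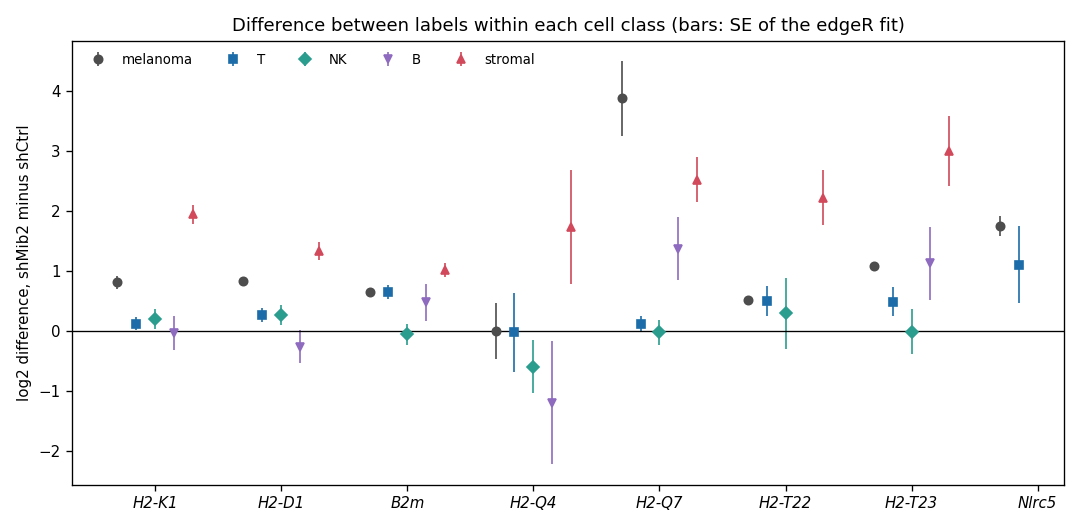
Difference between labels (log2, shMib2 minus shCtrl) for each member in 5 classes, with bars for the SE of the edgeR fit; a class is left out where it was not tested or where shCtrl had 0 UMIs. Stromal differences run from 1.01 for B2m to 3.0 for H2-T23, while those for H2-K1 in T and NK cells are 0.12 and 0.20.

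Whether the label difference varied between classes was tested directly over 10314 genes. For H2-K1 it was smaller in T cells than in melanoma cells by 0.68 on the log2 scale (estimate -0.68, SE 0.19, adjusted p = 0.0282 by edgeR's quasi-likelihood test), and this call was lost in 2 of 10 settings (adjusted p up to 0.128). For H2-Q7 the estimates were -3.72 in T (SE 0.31) and -3.65 in NK cells (SE 0.38), resting on melanoma levels near those of carried RNA. So 2 of the 8 members were called in T cells (1.48% of genes), 1 in NK cells (0.611%) and 0 in B cells (0.32%). H2-D1 was not called in T cells (-0.55, SE 0.20, adjusted p = 0.239 by edgeR), but was in 3 of 10 settings. The difference for B2m was 0.02 between T and melanoma cells (SE 0.20), and did not pass the test.

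The class I RNA of melanoma cells was uneven from cell to cell. Cells were thinned to 5000 UMIs each, which kept 8161, 6570 and 3977 melanoma cells. Of these, 55.8% in shCtrl, 46.0% for shMib2 replicate 1 and 44.7% for shMib2 replicate 2 had no UMI of the 6 heavy chain genes, where a Poisson spread with the same mean gives 49.7%, 30.5% and 27.8%. The variance was 1.65, 3.26 and 3.74 times the mean, beside 7.05, 6.51 and 6.31 times for the far more abundant pigment gene Pmel in the same cells. Heavy chain means were only 0.699, 1.19 and 1.28 UMIs a cell. This ratio rises with the mean, so it does not rank heavy chains against Pmel for unevenness. The 10% of cells with the most held 43.5%, 47.3% and 48.5% of the heavy chain UMIs.

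Melanoma cells with 5 or more heavy chain UMIs were 83 in shCtrl (1.02%, Wilson interval 0.821% to 1.26%), 349 for shMib2 replicate 1 (5.31%, 4.80% to 5.88%) and 241 for shMib2 replicate 2 (6.06%, 5.36% to 6.84%). Both shMib2 shares were higher than that of shCtrl. The intervals cover counting error over the cells of 1 library, so they do not test a difference between labels. Melanoma cells with 5 or more had 4.45, 6.70 and 6.50 B2m UMIs on average, against 0.907, 1.15 and 1.08 in cells with no heavy chain UMI. A UMI of Psmb8, an interferon-induced immunoproteasome subunit, was in 15.7%, 41.3% and 41.5% of the former and 0.0220%, 1.19% and 0.788% of the latter. Pmel was at 25, 23.7 and 20.7 UMIs in the former and 24.8, 23.3 and 21.9 in the latter, and Ptprc was seen in 1.20%, 2.01% and 3.73% against 0.0220%, 0.199% and 0.281%. The part of attached blood cells in this was not tested.

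**Figure D5:**
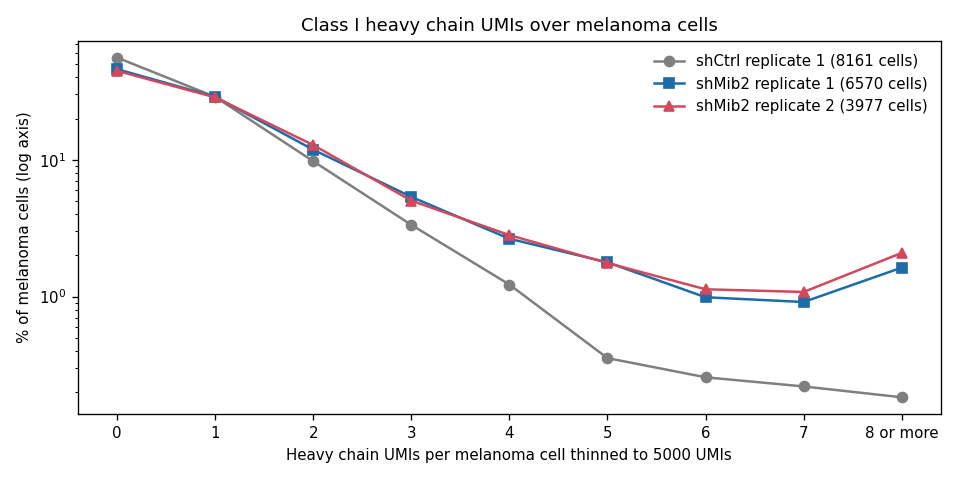
Percent of melanoma cells (log axis) by their number of heavy chain UMIs after thinning to 5000 UMIs, with 1 line a library. Cells with 5 or more make 1.02% of shCtrl, 5.31% of shMib2 replicate 1 and 6.06% of shMib2 replicate 2.

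Correlations between members over melanoma cells were weak at this depth. Spearman's rho of B2m and H2-D1 was 0.14 in shCtrl, 0.33 for shMib2 replicate 1 and 0.33 for shMib2 replicate 2, and that of H2-K1 and H2-D1 was 0.09, 0.23 and 0.23 (n = 8161, 6570 and 3977 cells, given as descriptions of counts from shared libraries). An Nlrc5 UMI was present in 22, 63 and 43 of these cells. They held 2.55, 3.32 and 4.35 heavy chain UMIs on average, against 0.694, 1.17 and 1.25 in cells without one.

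Without thinning, 47.6%, 54.9% and 62.6% of melanoma cells and 92.1%, 98.3% and 98.8% of T cells had an H2-K1 UMI, although T cells were much shallower. Thinned to 1000 UMIs, which left out 16 to 98 melanoma and 14 to 100 T cells a library, the shares were 4.15%, 6.26% and 6.78% in melanoma cells and 88.7%, 92.1% and 91.2% in T cells. Ptprc was seen in 0.0243%, 0.0899% and 0.210% of the thinned melanoma cells, and H2-Q7 in 0.0121%, 0.195% and 0.257%. The share for Nlrc5 was 0.0607%, 0.270% and 0.234%, and in shMib2 replicate 2 it lay near that of Ptprc.

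Genes that load peptides onto class I followed the classes unevenly. Of 13 such genes, 10 were higher and 3 lower in T cells than in melanoma cells, with a median log2 difference of 2.86 beside -0.08 over all genes. The transporter subunits Tap1 and Tap2 were 4.27 (SE 0.13) and 4.49 (SE 0.13) higher, the TAP-binding relative Tapbpl 4.04 (SE 0.15) and the immunoproteasome subunit Psmb9 4.70 (SE 0.24). The 3 lower were the chaperones Canx, Calr and Pdia3, which serve many glycoproteins. In NK cells 10 were higher and 3 lower, in B cells 7 and 3, in myeloid cells 10 and 1, and in stromal cells 12 and 0. Of all genes 35.9% were lower in T, 31.5% in NK, 22.3% in B, 27.3% in myeloid and 31.2% in stromal cells than in melanoma cells. Called higher were 33.9%, 26.8%, 16.1%, 25.9% and 38.1%, in the same order.

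In melanoma cells 0 of these 13 passed the test between labels by edgeR, and 10 had an unadjusted p under 0.05, as did 15.1% of all genes. Psmb8 was at 1.42, 18.1 and 19.1 CPM, Psmb9 at 4.32, 20 and 21 and Tap1 at 3.92, 11.7 and 12.7, each lowest in shCtrl. Their carried levels came to 0.0808, 1.27 and 1.76 for Psmb8 and to 0.0136, 0.268 and 0.370 for Tap1. The label difference of Psmb8 was smaller in T cells than in melanoma cells (estimate -3.39, SE 0.25) and in NK cells (-3.38, SE 0.41), both called by edgeR's quasi-likelihood test at an adjusted p of 0.05.

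Of 16 regulators of class I promoters, 13 were higher and 1 lower in T cells than in melanoma cells, with a median of 1.01. The interferon regulatory factor genes Irf1 (4.04, SE 0.12), Irf8 (6.20, SE 0.29) and Irf2 (2.74, SE 0.14) and the NF-kB gene Nfkb1 (2.41, SE 0.13) led by p, and the lower gene was Ezh2, a histone methyltransferase subunit (-0.63, SE 0.13). Some partners of NLRC5 on the promoter, named for that role after their values were seen, differed by less. These were Rfx5 by 1.21 (SE 0.36), Rfxap by 0.39 (SE 0.13), Rfxank by 0.73 (SE 0.26) and Nfyb by 0.34 (SE 0.14). Nfya, Nfyc, Creb1 and Atf1, also on the list, are not given, so this does not cover all partners. In NK cells 7 were higher and 1 lower, in B cells 7 and 1, in myeloid cells 9 and 2, and in stromal cells 7 and 2. Of all genes 33.9% were called higher in T, 26.8% in NK, 16.1% in B, 25.9% in myeloid and 38.1% in stromal cells. Called lower were 35.9%, 31.5%, 22.3%, 27.3% and 31.2%, in the same order. The stromal count was near its share and is no result about the regulators. Irf1 in melanoma cells was at 3.62, 9.39 and 11.6 CPM, and 0 of 16 passed the test between labels (5 at an unadjusted p under 0.05, beside 15.1% of all genes).

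Of 15 other class I genes listed, 7 had counts enough for the class test. In T cells 5 were higher, led by H2-M3 (6.09, SE 0.21), H2-Q6 (9.29, SE 0.34), H2-Q10 (8.39, SE 0.42) and Cd1d1 (5.23, SE 0.40), and the iron and antibody handling genes Hfe and Fcgrt were lower. In NK cells 5 were higher and 2 lower, in B cells 5 and 0, in myeloid cells 6 and 0 and in stromal cells 6 and 0. The shares of all genes called higher were 33.9% in T, 26.8% in NK, 16.1% in B, 25.9% in myeloid and 38.1% in stromal cells. Those called lower were 35.9% in T and 31.5% in NK cells. H2-Q6, beside H2-Q7 in the genome and close to it in sequence, was at 0.0544, 0.352 and 0.719 CPM in melanoma cells. None of the 8 tested between labels in melanoma cells passed, with 4 at an unadjusted p under 0.05, beside 15.1% of all genes.

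Receptors that read class I were measured in the cells that carry them. The CD8 genes Cd8a and Cd8b1 were at 249, 304 and 295 and at 256, 317 and 372 CPM in T cells, and Klrc1, the NKG2A gene whose product binds Qa-1, was at 34.6, 64.6 and 79.4 in T and 174, 69.2 and 92.7 in NK cells. The shCtrl values rest on 76 T cells with 144411 UMIs in all and 28 NK cells with 46088. Its Klrc1 levels thus stand on few molecules and are not set against the other libraries. All 12 receptor genes were higher in T than in melanoma cells, 9 in NK, 1 in B, 5 in myeloid and 8 in stromal cells. Beside these counts, 33.9%, 26.8%, 16.1%, 25.9% and 38.1% of all genes were called higher, in the same order. Some of the 12 (Klra4, Klra7, Klra8 and Klra9) served as gate markers of NK cells, so the NK count is no result. Barcodes past the NK gate were also kept out of the melanoma class, so the counts of the other classes rest partly on the gate. In melanoma cells all 12 were fitted higher in the shMib2 libraries (52.0% of all genes were), with 0 calls. Their median log2 difference was 4.12 beside 0.0078 over all genes, and 11 had an unadjusted p under 0.05, beside 15.1% of all genes. Levels were low, such as 0.0251, 0.262 and 0.541 for Cd8a, beside 0.0838, 1.20 and 1.77 for Ptprc. Ifng in T cells was at 96.9, 218 and 293 CPM.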

How the data were processed

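Tumors of 3 mice a library were pooled, dissociated and run on the 10x Chromium V(D)J 5′ kit (v1.1 chemistry). The deposited values are counts: UMIs per gene and cell barcode, which the authors made with Cell Ranger 4.0.0 on mm10, per the labels. Barcodes with under 200 genes or over 20% mitochondrial UMIs were left out. A cell entered a class other than melanoma with 2 of its markers and 10 UMIs per 10000 of them. That level had to be 3 times any other class, with pigment markers below their library median divided by 3. Melanoma cells held 3 pigment markers, at or above that cut, and passed no other gate. Erythroid (500 UMIs per 10000) and plasmacytoid barcodes were left out. Barcodes that passed another gate at or above the pigment cut, or 2 gates without that 3-fold lead, were dropped as mixed. A melanoma cell joined to a blood cell could stay below the blood cell gate, and no doublet caller was run. UMIs were summed by library and class and tested with edgeR 4.0.16 (TMM, filterByExpr, quasi-likelihood, adjusted p under 0.05), between labels with at least 20 cells a library and between classes with at least 10 and the library as a block. DESeq2 1.42.0 was an alternative. Shares have Wilson intervals at 95%, levels Poisson ones, and a count of 0 was bounded by 3. Named were all members, up to 4 called genes of each pathway list by lowest p, and the 5 genes most like H2-K1 and Nlrc5 over log2(CPM + 1), where CPM is UMIs of a gene per 1000000 of the class. The members and lists were chosen with earlier results of these data known. The scripts were tested on simulated data.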

Additional observations from a re-analysis of the deposited data

Results flagged for a closer look

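The difference between labels varied between cell classes for 5 members, by edgeR's quasi-likelihood test of the difference itself. They were H2-K1 and H2-Q7 in blood cells, and H2-K1, H2-D1, B2m and H2-T22 in stromal cells. The blood cell calls came from the main gate, where 1.48% of genes were called in T and 0.611% in NK cells. The stromal calls came from the looser gate, where 2.4% of genes were called. The H2-K1 call in T cells held in 8 of 10 settings. For H2-K1 the shMib2 minus shCtrl difference was lower in T cells than in melanoma cells (estimate -0.68 on the log2 scale, SE 0.19, adjusted p = 0.0282, n = 3 libraries): melanoma cells went from 40.8 to 69.5 and 77.7 CPM and T cells from 2444 to 2771 and 2851. The level that blood cell RNA would carry into melanoma cells was 0.281, 3.80 and 5.61 CPM. For H2-Q7 the estimates were -3.72 in T cells and -3.65 in NK cells. The melanoma values behind both were 0.130, 1.40 and 2.54 CPM, beside a carried level of 0.0969, 1.37 and 1.94. Between stromal and melanoma cells, with the looser gate, the estimates were 1.31 for H2-K1 (SE 0.20), 0.67 for H2-D1 (SE 0.19), 0.50 for B2m (SE 0.15) and 1.87 for H2-T22 (SE 0.56), with adjusted p of 2.17e-08, 0.021, 0.0359 and 0.0401 by edgeR. These rest on 20 stromal cells of shCtrl.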

How the results depend on the processing

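No paired analysis was possible because shCtrl was 1 library with no replicate number. In the tests between classes all 8 members kept their calls in NK, T and stromal cells when a library was left out, with 6 to 7 of 8 in B and 7 to 8 in myeloid cells. The calls lost, H2-T22 in B and H2-Q4 in myeloid cells, were those without shMib2 replicate 2. Leaving out 1 library gave 3495 to 7809 genes called in T, 2753 to 6517 in NK, 1784 to 3627 in B, 2124 to 5991 in myeloid and 3266 to 7866 in stromal cells; without a low-count filter stromal cells gave 11000.

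Between labels the counts moved most in melanoma cells, from 0 genes to 758 with library totals only, 1124 with DESeq2, 45 without the cell filter, 7 with at least 50 UMIs, 7 with cells of at least 5000 UMIs and 6 with the loose gate. Members called there were 7 with library totals only, 7 with DESeq2 and 3 without the cell filter. T cells went from 20 genes to 77 (DESeq2 size factors), 77 (library totals), 114 (no low-count filter), 87 (at least 50 UMIs), 38 (DESeq2), 57 (no cell filter), 58 (strict cell filter), 73 (strict gate) and 69 (loose gate), and 1 member, B2m, was called in all of these but DESeq2. NK cells gave 8 genes without the low-count filter, 5 with the loose gate and 0 with DESeq2 size factors, at least 50 UMIs, DESeq2, no cell filter or the strict gate. B cells gave 1 without the low-count filter or with the loose gate and 0 with at least 50 UMIs, DESeq2, no cell filter or the strict gate. The cause was not tested.

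The differences that changed sign were ones not called in the report's tests. For H2-Q4 they were 0.0336 in melanoma cells (library totals) and 0.0510, 0.0589 and 0.120 in T cells (library totals, no low-count filter, strict cell filter). Leaving out 1 shMib2 library gave H2-Q4 values of -0.57 to 0.40 in melanoma and -0.82 to 0.36 in T cells, the higher ones without shMib2 replicate 1. In NK cells, without the low-count filter, B2m was 0.18, H2-Q7 0.21 and H2-T23 0.22; H2-T23 was 0.0889 with the loose gate. Leaving out 1 shMib2 library gave -0.18 to 0.0324 for H2-T23 and -0.14 to 0.44 for H2-T22, the lower ones without shMib2 replicate 2. In B cells H2-K1 was 0.0569 (library totals), 0.18 (no low-count filter), 0.0304 (no cell filter) and 0.0566 (strict gate), and -0.14 to 0.0570 with 1 shMib2 library left out.

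For the difference of label effects, T cells gave 232 genes with DESeq2 size factors, and 1 member without the low-count filter or with at least 50 UMIs. H2-D1 in T cells became called with DESeq2 size factors (-0.60), library totals (-0.52) and the strict cell filter (-0.48). NK cells gave 3 members with DESeq2 size factors and 4 with library totals. B cells gave 2 with either scaling, and 1 without the cell filter or with the loose gate. These member counts have no share of all genes beside them, so they are no result about the members. The median over all genes moved as well. In NK cells it was 0.67 in the main fit, 0.44 with DESeq2 size factors and 0.35 with library totals, and in B cells 0.40, 0.24 and 0.19. Signs turned for B2m in T (-0.0232 with DESeq2 size factors, -0.00637 with the strict gate) and in B cells (-0.0937 and -0.15 with DESeq2 size factors and library totals). In T cells H2-Q4 was 0.00199, 0.0272, 0.0707 and 0.0159 (no low-count filter, at least 50 UMIs, strict cell filter, loose gate), and H2-T22 was 0.0114 with library totals and 0.0901, 0.0939, 0.15 and 0.11 with those 4. In NK cells H2-T22 was -0.23, -0.32 and -0.0347 (DESeq2 size factors, library totals, strict cell filter) and Nlrc5 -0.19 (loose gate).

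Counting all class I heavy chain genes listed, the mean classical share was 71.7% in T, 73.6% in NK, 77.8% in B and 81.1% in myeloid cells, and in T cells it was 74.6% with the strict and 74.7% with the loose gate. Thinned to 1000 and 5000 UMIs, the mean share of melanoma cells with a UMI was 5.73% and 21.7% for H2-K1, 24.1% and 64.6% for B2m, and 0.188% and 0.748% for Nlrc5. In T cells thinned to 1000 it was 90.7% for H2-K1 and 84.3% for B2m. The label tests rested on 1 control library with 76 T, 28 NK and 57 B cells, and the part of this in the number of calls was not tested.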
